A study of Arabidopsis thaliana with 24 samples.

Results

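The response of wild-type Arabidopsis rosettes to BTH was read from 8 of the 24 Affymetrix ATH1 arrays of the series, all arrays titled as Col with BTH and as Col with water being taken, 4 of each. The Col BTH plants (Col-0) had been sprayed with 300 µM BTH and the Col water plants with water, 2 days before their rosettes were collected at an age of 4 weeks. The other 4 groups of 4 arrays each were drawn on for comparison: mil4 plants sprayed with BTH, mil4 plants sprayed with water, and the double mutant mil4 sid2 and the single mutant sid2, both sprayed with water. The sid2 mutant lacks the isochorismate synthase that makes most salicylic acid in attacked leaves. All plants grew at 22 °C under a 14 h photoperiod. The labels call the replicates biological but do not say how many plants went into each, so the p-values measure the spread between these RNA samples.

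BTH (benzothiadiazole) is a synthetic inducer of plant immunity that is perceived as a stand-in for salicylic acid. Salicylic acid acts through the co-activator NPR1 and TGA transcription factors, which switch on genes for antimicrobial proteins together with the chaperones and translocation machinery that bring secreted proteins through the endoplasmic reticulum. It is also known for opposing jasmonate-dependent defence and for slowing growth, in part by damping genes for cell wall loosening. The comparison of Col BTH with Col water asks how the rosette transcriptome of wild-type plants stands after this treatment.

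Of the markers for leaf and root 1 each was measured. RCA, rubisco activase, was among the brightest probe sets, with intensities of 23350 to 29222 in Col BTH and 23778 to 32012 in Col water, while EXPA7, an expansin of root hairs, lay between 4.1 and 40.8 in Col BTH and between 8 and 18.4 in Col water. Array medians were 161.8 to 171.1 in Col BTH and 154.1 to 162.7 in Col water. The GAPDH transcript's 3′ over 5′ signal, a measure of RNA integrity, was 0.792 to 1.122 in Col BTH and 0.699 to 0.966 in Col water. The same ratio was much higher for actin, at 8.68 to 13.1 in Col BTH and 5.15 to 13.25 in Col water. For ubiquitin it was 2.01 to 2.59 in Col BTH and 1.71 to 3.16 in Col water. The part of the medians and of these ratios in the results was not tested. On the first principal component of all arrays (21.2% of the variance) the Col BTH arrays scored 34.4 to 38.3 and the Col water arrays -18.6 to -1.71. In whole rosettes fewer cells of a type and less RNA per cell cannot be told apart. Gene names were given to probe sets with 1 gene in the annotation used here, 13355 genes in all, and 49 of the 326 genes on the lists below were measured in that sense.

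Many probe sets differed between Col BTH and Col water, in numbers that depended on the fit, and the largest changes were mostly rises. On log2(intensity + 16), with limma over all arrays and Benjamini-Hochberg adjustment, 2886 of 22746 probe sets passed an adjusted p of 0.05 (12.7%). Of these, 1528 were higher in Col BTH (6.72%) and 1358 lower (5.97%). Among all probe sets, 9.28% had every Col BTH array above every Col water array and 8.63% every one below. The median log2 fold change was 0.75 among the rises and -0.60 among the falls, against 0.01 over all probe sets. At 4-fold or more, 90 of the rises and 11 of the falls remained past the test, and at 2-fold or more 483 of the rises and 184 of the falls did. Under quantile normalization 1349 probe sets were higher and 1492 lower, which reverses which direction holds the larger count. Of the rises, 1495 were higher in Col BTH in all 4 same-numbered pairs, and 1327 of the falls were lower in all 4.

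Same-numbered Col BTH and Col water arrays had been hybridized in the same run. With the replicate number as a block, 1057 probe sets passed (4.65%), 659 higher (2.9%) and 398 lower (1.75%), and 977 of them were among the 2886 (4.3% of all tested). Each fluidics module that carried Col BTH arrays carried no Col water array, so within Col the module and BTH cannot be told apart. With module as a block, estimated through the other groups, 893 probe sets passed. Of the genes named by rule and the list members, 105 passed without a block, and 36 of these missed the threshold with the replicate block and 49 with module (adjusted p of 0.056 to 0.545). Values of a gene come from the fit without blocks, which does not use the pairing of same-numbered arrays. For a gene whose call is described, the replicate block is given where it ends the call, and module where module alone of these blocks does.

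**Figure D1:**
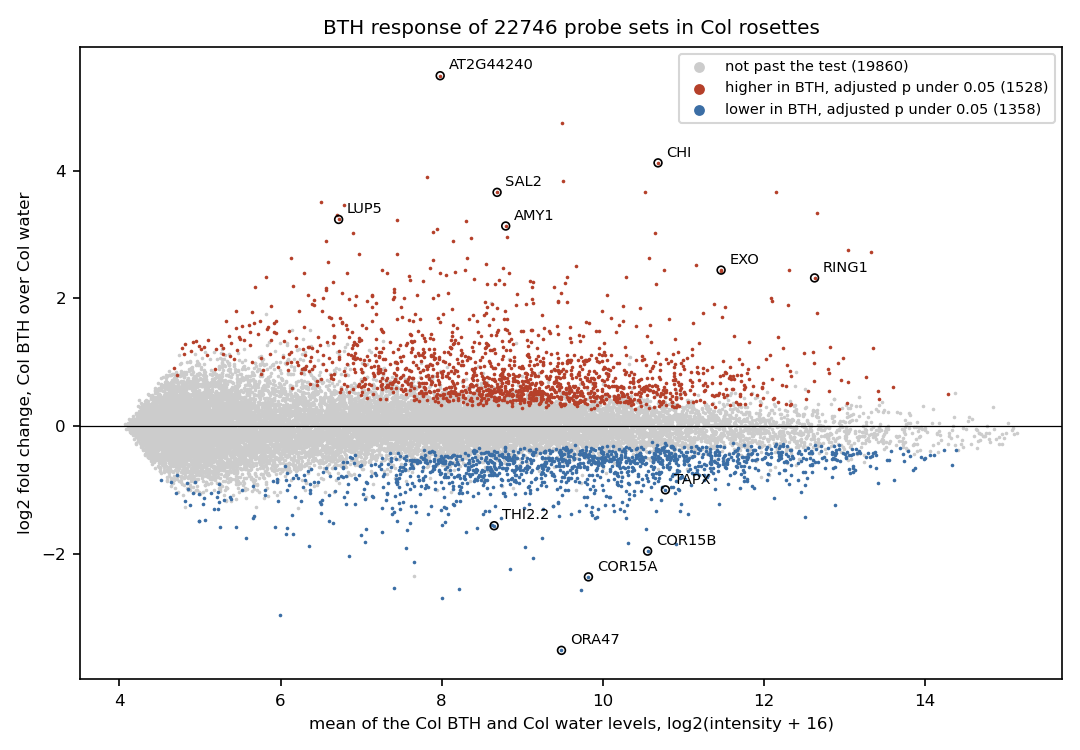
Each point is 1 of 22746 probe sets, with the mean of its Col BTH and Col water levels, log2(intensity + 16), on the x axis and the log2 fold change of Col BTH over Col water on the y axis. Red points are the 1528 probe sets higher in Col BTH and blue points the 1358 lower, and circles mark named genes; AT2G44240 (5.48) and CHI (4.12) lie at the top and ORA47 (-3.51) at the bottom.

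The genes with a symbol and the largest rises, chosen by size after their values were seen, included several for enzymes. Genes named for the size of their change in Col had to pass with and without the replicate block and to show no overlap between the groups. For these genes neither is added support. CHI, which encodes a chitinase-type protein that can act on fungal cell walls, had intensities of 6679, 7677, 7016 and 6154 in Col BTH, against 472.5, 470.4, 503 and 182 in Col water (replicates 1 to 4, as in all such lists below). Every Col BTH array lay above every Col water array, and the lowest value was that of Col water replicate 4 (log2 fold change 4.12, SE 0.35, adjusted p = 1.02e-07). AMY1, an alpha-amylase that is secreted from the cell, measured 1331, 1206.5, 1478 and 1202.5 in Col BTH, against 151, 137, 162.5 and 95 in Col water. The groups did not overlap, and the change was 8.76-fold (log2 fold change 3.13, SE 0.17, adjusted p = 4.31e-10). LUP5, a triterpene synthase, measured 256, 505, 333 and 205 in Col BTH, against 12.6, 12.7, 28.9 and 22 in Col water. The Col water arrays were all near the pseudocount of 16, and the ratio of its mean intensities was 17.1, which the fold change on the log2 scale understates (log2 fold change 3.23, SE 0.37, adjusted p = 4.79e-06). SAL2, which belongs to the family of inositol phosphate and bisphosphate nucleotide phosphatases, measured 1318, 1665, 1564 and 1289.8 in Col BTH, against 84.5, 178, 138 and 44.6 in Col water. Its groups were far apart on every array (log2 fold change 3.66, SE 0.30, adjusted p = 6.15e-08).

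Genes for ion channels, calcium binding and ubiquitin ligation were also among the rises. The glutamate receptor-like proteins are cation channels of the plasma membrane, and 3 of the 8 measured GLR genes rose and 1 fell, and the 3 rises but not the fall passed with the replicate block. Among all genes with a single name, 5.92% rose and 5.01% fell, and the counts of every list and family below are to be read against these shares. The median change of the 8 GLR genes was 0.50. GLR1.4 measured 612, 805, 634 and 557 in Col BTH, against 132, 108, 94.8 and 103 in Col water, with no overlap (log2 fold change 2.41, SE 0.14, adjusted p = 1.36e-09). GLR2.8 measured 239.8, 323, 276 and 245 in Col BTH, against 52.6, 50.4, 62.5 and 71.4 in Col water, and its neighbour in the genome GLR2.7 measured 616, 663, 574 and 655 in Col BTH, against 206, 246, 231 and 212 in Col water. Neither overlapped between the groups (log2 fold changes of 1.93, SE 0.26, adjusted p = 3.24e-05 for GLR2.8 and 1.42, SE 0.18, adjusted p = 1.14e-05 for GLR2.7). These 2 genes lie side by side, and probes of near-identical copies can share signal. CML41, a calmodulin-like protein of plasmodesmata, measured 661, 943, 1136 and 1058 in Col BTH, against 146, 209, 168 and 238 in Col water. Its lowest Col BTH array, replicate 1, lay well above its highest Col water array (log2 fold change 2.22, SE 0.30, adjusted p = 3.4e-05). RING1, a ubiquitin ligase that has been tied to cell death, was far brighter, at 13156.5, 13680.5, 14112 and 15806 in Col BTH, against 2599, 3637, 3412 and 1974 in Col water (log2 fold change 2.32, SE 0.19, adjusted p = 7.53e-08).

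Other rises were in genes for enzymes of small-molecule and redox metabolism. UGT87A2, a glycosyltransferase known for an effect on flowering time, had nearly equal values on the Col BTH arrays and more scattered ones on the Col water arrays, 1644, 1607, 1577 and 1545 in Col BTH, against 489, 383, 266 and 224 in Col water (log2 fold change 2.24, SE 0.22, adjusted p = 6.2e-07). MSRB9, a methionine sulfoxide reductase that repairs oxidized proteins, measured 688, 1080, 827.5 and 896 in Col BTH, against 276, 109, 174 and 163 in Col water, with Col water replicate 1 the highest of its group and still below all Col BTH arrays (log2 fold change 2.22, SE 0.26, adjusted p = 5.22e-06). cwINV6, a fructan-cleaving relative of cell wall invertases, measured 418, 479, 470.1 and 478 in Col BTH, against 91.3, 122, 90.9 and 112 in Col water (log2 fold change 2.00, SE 0.18, adjusted p = 2.21e-07). CCOAMT, an O-methyltransferase of the phenylpropanoid type, was the most variable of these in Col BTH, at 223, 612, 378 and 599 in Col BTH, against 73.4, 87.9, 49.7 and 71.7 in Col water (log2 fold change 2.35, SE 0.45, adjusted p = 0.00114, and 0.187 with module as a block). Of 23 measured cytochrome P450 genes 3 rose (13%) and none fell, against 5.92% and 5.01% of all genes with 1 name, with a median change of 0.04. With the replicate block 2 rose, the related pair CYP71B23 (1536, 1707, 1432 and 1506 in Col BTH, against 755, 517, 489.5 and 292 in Col water) and CYP71B24 (644, 775, 463 and 457.5 in Col BTH, against 353, 326, 226 and 127.5 in Col water). Both members of that pair had their lowest value in Col water replicate 4 and did not overlap between groups (log2 fold changes of 1.63 and 1.19, SE 0.22 and 0.24). With module as a block the adjusted p of CYP71B24 was 0.108, and with the 8 Col arrays fitted alone it was 0.0524.

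**Figure D2:**
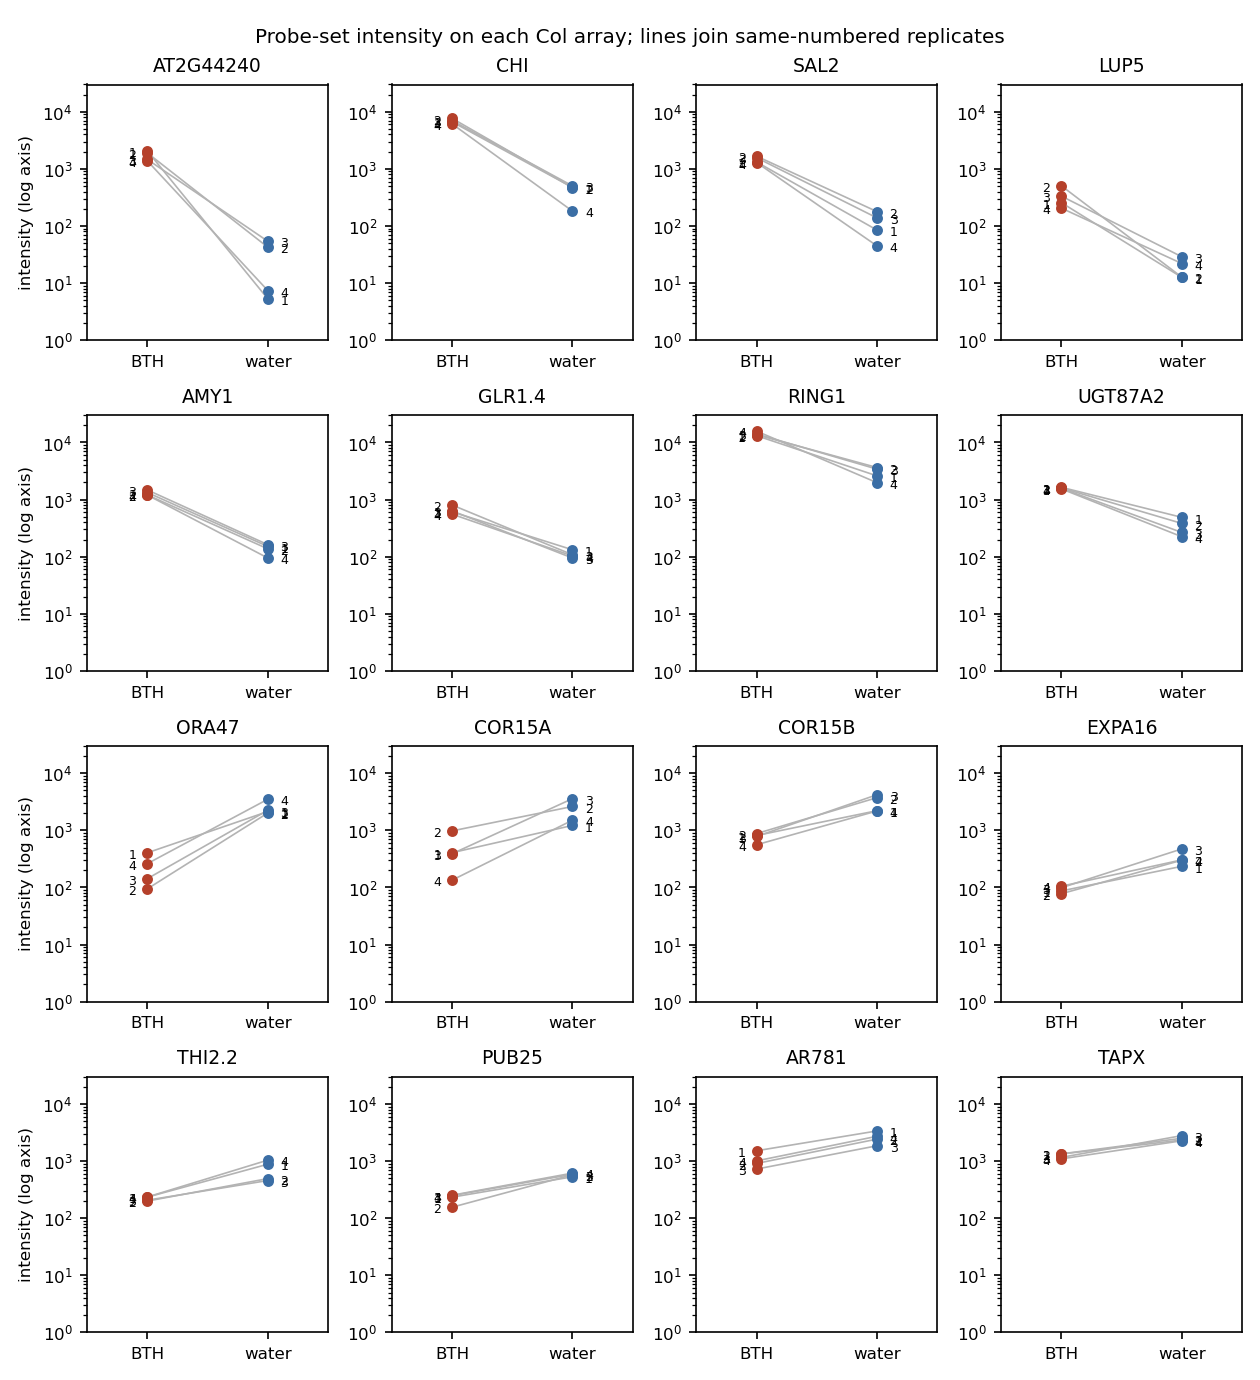
Intensities (log axis) on the 4 Col BTH arrays (left, red) and the 4 Col water arrays (right, blue) for 8 genes that rose and 8 that fell, with same-numbered replicates joined and labelled 1 to 4. In each of the 16 panels the groups do not overlap, which was a condition for naming these genes. CHI lies between 6154 and 7677 in Col BTH and between 182 and 503 in Col water, and ORA47 between 94.5 and 405 in Col BTH and between 2013 and 3505 in Col water.

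Many of the strongest rises were of genes known here by locus tag alone. The largest was that of AT2G44240, with 2055, 1900.1, 1464 and 1380.1 in Col BTH, against 5.3, 42.5, 54 and 7.4 in Col water. It was below the pseudocount on Col water replicates 1 and 4 and bright on every Col BTH array (log2 fold change 5.48, SE 0.49, adjusted p = 2.25e-07). AT3G49340 measured 545, 558, 584 and 402.5 in Col BTH, against 48.5, 35.3, 40.6 and 41.4 in Col water and AT4G00700 measured 931, 962, 926 and 948 in Col BTH, against 103, 89.9, 141 and 41.8 in Col water. Neither overlapped between the groups, and they rose by 3.22 and 3.21 (SE 0.22 and 0.27). AT3G18250, in contrast, varied widely in Col water, at 677, 1032, 584 and 893 in Col BTH, against 349.8, 112, 31.9 and 103 in Col water, and still did not overlap (log2 fold change 2.63, SE 0.43, adjusted p = 0.000231). AT5G09290 (2.69), AT3G28510 (2.63), AT3G13950 (2.60) and AT4G39830 (2.54) were further rises without overlap, which the choice of these genes required. AT5G52740 (361, 472, 511 and 381 in Col BTH, against 75.6, 58.5, 42.5 and 38.8 in Col water) and AT5G52760 (2218, 2005, 1919.5 and 1579.9 in Col BTH, against 404, 440.5, 345 and 181 in Col water) flank AT5G52750. All 3 adjacent genes rose, by 2.7 for AT5G52740, 2.50 for AT5G52760 and 1.11 for AT5G52750 on the log2 scale.

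Some genes of salicylic acid signalling and response rose. Of the 35 genes listed for salicylic acid synthesis and signalling 7 were measured. Of these, 3 rose (42.9%, against 5.92% of all genes with 1 name) and none fell, with a median change of 0.69. SAG101, a partner of the immune regulator EDS1, measured 285, 438.5, 309 and 213 in Col BTH, against 153.5, 141, 171 and 77.3 in Col water, every Col BTH array being above every Col water array (log2 fold change 1.11, SE 0.23, adjusted p = 0.00183, and 0.0855 with module as a block). AT5G52810 rose in the same way (log2 fold change 1.09, SE 0.23, adjusted p = 0.00273, and 0.181 with module as a block). AT4G26120 passed narrowly at 0.92 (adjusted p = 0.0466), and its call was lost under 13 of 16 alternatives. Its adjusted p was 0.161 with the replicate block, between 0.0665 and 0.109 without any 1 of the Col BTH arrays, 0.0697 without Col water replicate 3 and 0.206 without Col water replicate 4. UGT74F1 and UGT76B1, glycosyltransferases that act on salicylic acid and on a regulator of its pathway, were dim, at 4 to 49.9 and 11.4 to 39 in Col BTH and at 5.7 to 16.6 and 2.5 to 13.9 in Col water. Neither passed the test (adjusted p = 0.147 and 0.382), though UGT74F1 passed without Col BTH replicate 4 (log2 fold change 0.91, adjusted p = 0.0112). Both measured genes of the 20 on the response list rose. GRX480, a glutaredoxin that binds TGA factors, measured 728, 452, 498 and 447 in Col BTH, against 199, 192, 355 and 111 in Col water. The groups did not overlap, with Col water replicate 3 the highest of its group (log2 fold change 1.32, SE 0.27, adjusted p = 0.00179, and 0.0577 with the replicate block). WRKY53, a transcription factor of senescence and defence, measured 1775, 844, 1730.5 and 1748 in Col BTH, against 1088, 792, 735 and 618 in Col water. Col BTH replicate 2 lay within the Col water range (log2 fold change 0.87, SE 0.23, adjusted p = 0.0146), and the adjusted p was 0.12 with the replicate block, 0.0531 and 0.0507 without Col BTH replicates 3 and 4, and 0.0623 without Col water replicate 4. Of 6 measured WRKY genes WRKY53 and WRKY47 rose and none fell. WRKY47 measured 340, 373, 249 and 305 in Col BTH, against 159, 149, 103 and 121 in Col water with no overlap (log2 fold change 1.16, SE 0.18, adjusted p = 0.000114, and 0.056 with module as a block).

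Most measured genes of the secretory pathway rose, by small amounts. Of 8 measured members of the list for the endoplasmic reticulum machinery 6 rose (75%, against 5.92% of all genes with 1 name) and none fell. The median change was 0.60, and 3 rose with the replicate block. ATERDJ3B, a co-chaperone of protein folding in the endoplasmic reticulum, measured 2775, 2755, 3269 and 2317 in Col BTH, against 1415, 1176.5, 1428 and 1027 in Col water, with no overlap (log2 fold change 1.13, SE 0.14, adjusted p = 7.61e-06). CRT1b, a calreticulin, was bright, at 5284, 5249.7, 5130 and 4870.4 in Col BTH, against 3034, 3222.5, 3030.3 and 3541.5 in Col water (log2 fold change 0.68, SE 0.10, adjusted p = 5.35e-05). AT3G60540 showed the largest rise of the list, 909.8, 792, 775 and 612 in Col BTH, against 286, 206, 177 and 266.5 in Col water (log2 fold change 1.67, SE 0.18, adjusted p = 1.9e-06). AT5G07340 (0.66), AT1G29310 (0.53) and AT2G34250 (0.38) rose less, each without overlap, and their adjusted p with the replicate block was 0.0553, 0.0654 and 0.106. The 2 members that did not pass encode transcription factors that drive this machinery under folding stress, BZIP60 at 1573.5 to 2045 in Col BTH and 1313 to 2110.3 in Col water (log2 fold change 0.10, adjusted p = 0.799) and BZIP28 at 738 to 893 in Col BTH and 700 to 844 in Col water (0.07, adjusted p = 0.809).

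Smaller rises were measured for an immune kinase and for autophagy genes. BIK1, a kinase that relays signals from immune receptors, measured 985, 779, 931 and 1242 in Col BTH, against 676, 555, 609.9 and 688 in Col water, with a narrow gap between groups (log2 fold change 0.61, SE 0.14, adjusted p = 0.00469, and 0.0529 with the replicate block). The receptor kinase gene EFR did not pass (log2 fold change 0.15, adjusted p = 0.849). Of 8 measured autophagy genes 3 rose (37.5%, against 5.92% of all genes with 1 name), none fell, and the median was 0.32. All 3 encode ATG8, the ubiquitin-like protein that coats autophagosome membranes. ATG8E measured 1243, 1557, 1081 and 1024 in Col BTH, against 792, 758.5, 469 and 426 in Col water (log2 fold change 1.02, SE 0.21, adjusted p = 0.0018, and 0.163 with module as a block), and ATG8D measured 644, 733, 651.5 and 721 in Col BTH, against 348, 435, 551 and 383 in Col water (log2 fold change 0.68, SE 0.14, adjusted p = 0.00202, and 0.0733 with the replicate block). ATG8B rose by 0.67 (adjusted p = 0.0208, and 0.069 with the replicate block), a call lost without Col BTH replicate 2 (0.084), Col water replicate 3 (0.0846) or Col water replicate 4 (0.0611).

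**Figure D3:**
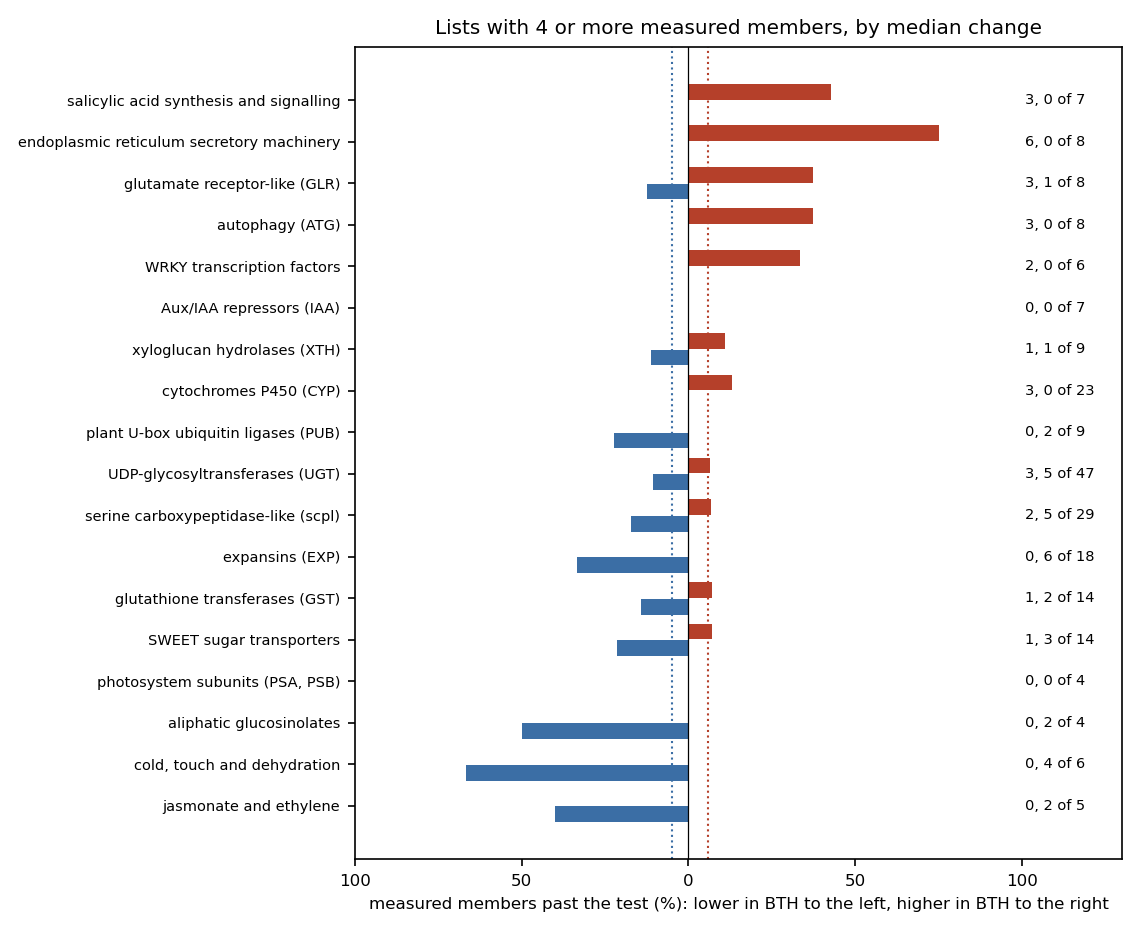
Share of the measured members of each list or gene family that were past the test in Col, higher in BTH to the right (red) and lower to the left (blue), ordered by median change, with the counts higher, lower and measured at the right. Dotted lines mark the shares over all genes with 1 name, 5.92% higher and 5.01% lower; 6 of 8 secretory genes rose and 4 of 6 genes of the cold, touch and dehydration list fell.

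Several genes that respond to cold, touch or jasmonate fell. Of 6 measured genes listed for cold, touch and dehydration 4 fell (66.7%, against 5.01% of all genes with 1 name) and none rose. The median change was -1.59, and 3 fell with the replicate block. ORA47, a transcription factor of jasmonate synthesis, measured 405, 94.5, 142.5 and 261 in Col BTH, against 2132, 2013, 2248 and 3505 in Col water. Every Col BTH array lay far below every Col water array, and Col BTH replicate 2 was the lowest (log2 fold change -3.51, SE 0.31, adjusted p = 1.87e-07). COR15A and COR15B encode chloroplast proteins that protect membranes in freezing cells and are neighbours in the genome. COR15A measured 406, 978, 388 and 134 in Col BTH, against 1219, 2617, 3586.5 and 1505 in Col water, a wide scatter in both groups with no overlap (log2 fold change -2.36, SE 0.42, adjusted p = 0.00061). COR15B was steadier, at 813.5, 878, 784 and 560.1 in Col BTH, against 2212, 3746.5, 4214 and 2189 in Col water (log2 fold change -1.96, SE 0.23, adjusted p = 5.61e-06). STZ, a zinc finger repressor that cold and touch induce, measured 2565, 727, 1174 and 1294 in Col BTH, against 3289, 3362, 2679 and 2969 in Col water, with Col BTH replicate 1 close to the Col water arrays (log2 fold change -1.23, SE 0.29, adjusted p = 0.00547, and 0.086 with the replicate block). LTI30 and COR47, 2 dehydrins of the same list, lay higher in Col BTH by 0.64 and 0.08 without passing (adjusted p = 0.0609 and 0.851). LTI30 passed without Col BTH replicate 4 (0.0334) or Col water replicate 3 (0.0355).

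Falls and no rises passed in the jasmonate and ethylene list. Of 5 measured jasmonate and ethylene genes 2 fell, ORA47 and PDF1.2, and none rose, with a median of -2.35. In mil4 the direction was the other way, with 2 of the 5 rising with BTH and none falling. PDF1.2, a plant defensin, measured 79.2, 102, 59.9 and 106.5 in Col BTH, against 2535, 410.5, 464.5 and 334 in Col water, with Col water replicate 1 far above the other arrays of its group (log2 fold change -2.69, SE 0.84, adjusted p = 0.0368). Its adjusted p was 0.138 without that array, 0.0619 with the replicate block and between 0.052 and 0.0923 without Col water replicate 3 or any 1 of the Col BTH arrays. PDF1.2b, a close copy whose probe set can share signal with it, measured 71, 87.5, 60.6 and 76.2 in Col BTH, against 2289, 214, 368 and 192 in Col water and did not pass (adjusted p = 0.12). OSM34, an osmotin-like defence gene of the list, measured 284, 87.3, 73 and 113 in Col BTH, against 158, 15.8, 38 and 99.1 in Col water, higher in Col BTH in all 4 pairs with groups that overlapped, and did not pass (log2 fold change 0.84, adjusted p = 0.496). The thionin gene THI2.1 had overlapping groups too and did not pass (-0.42, adjusted p = 0.5). THI2.2, also a thionin, is an antimicrobial peptide gene outside that list. It measured 234, 199.5, 207 and 235 in Col BTH, against 882, 494, 457 and 1039.7 in Col water, and it fell with no overlap (log2 fold change -1.56, SE 0.21, adjusted p = 3.06e-05).

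Some genes for cell wall loosening fell. Of 18 measured expansins 6 fell (33.3%, against 5.01% of all genes with 1 name) and none rose. With the replicate block 3 fell, and the median of all 18 was -0.08. EXPA16 measured 86.9, 77.6, 98.8 and 105 in Col BTH, against 234, 300.1, 473 and 304 in Col water (log2 fold change -1.63, SE 0.22, adjusted p = 2.63e-05). EXPB1 measured 208, 161, 228 and 254 in Col BTH, against 593.5, 582, 452 and 688 in Col water, with no overlap (log2 fold change -1.38, SE 0.37, adjusted p = 0.0153), and its adjusted p was 0.0553 without Col BTH replicate 2, 0.0508 without Col water replicate 4, 0.0779 with a pseudocount of 1 and 0.197 with module as a block. EXPA8, the brightest of the 6, measured 2021, 848, 1647 and 2189.7 in Col BTH, against 3177, 2731, 2402 and 3878 in Col water (log2 fold change -0.92, SE 0.25, adjusted p = 0.0162, 0.0812 with the replicate block, 0.0732 without Col BTH replicate 2 and 0.0672 without Col water replicate 4). GH9C2, of the endoglucanase family of wall enzymes, measured 878, 442.5, 749 and 788 in Col BTH, against 1895, 1798, 1287 and 2229.6 in Col water (log2 fold change -1.33, SE 0.20, adjusted p = 9.91e-05). In these last 2 genes the lowest array was Col BTH replicate 2.

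Other genes of cell expansion were higher in Col BTH. EXO, which promotes cell expansion and responds to brassinosteroids, measured 4391, 11551, 7770.2 and 4800.1 in Col BTH, against 624.5, 1401, 4295 and 547 in Col water (log2 fold change 2.44, SE 0.43, adjusted p = 0.000471), with Col water replicate 3 just below the lowest Col BTH array. XTH33, a wall-modifying transglucosylase, measured 71.4, 539, 146 and 78.1 in Col BTH, against 30.1, 59.8, 85.5 and 25.7 in Col water and overlapped (log2 fold change 1.41, SE 0.40, adjusted p = 0.022, and 0.11 with the replicate block). Its adjusted p was 0.0654 without Col BTH replicate 2, 0.0674 without Col water replicate 1 and 0.0854 without Col water replicate 4. The expansin-like gene EXLA1 measured 952, 5217, 2134 and 1147 in Col BTH, against 650.3, 777, 1746.5 and 662 in Col water and did not pass (adjusted p = 0.0785). It passed without Col water replicate 3 (0.0204), Col BTH replicate 1 (0.0215) or Col BTH replicate 4 (0.0439). In EXO, XTH33 and EXLA1 alike, Col BTH replicate 2 was the highest Col BTH array and Col water replicate 3 the highest Col water array.

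Ubiquitin ligases, glycosyltransferases and transporters included further falls. PUB25 and PUB26 encode U-box ligases known to mark the kinase BIK1 for degradation. PUB25 measured 233.5, 156, 249 and 252 in Col BTH, against 531, 577, 588 and 616 in Col water (log2 fold change -1.34, SE 0.22, adjusted p = 0.000301) and PUB26 measured 465, 507, 478 and 509.9 in Col BTH, against 988, 880.5, 934 and 635 in Col water (log2 fold change -0.77, SE 0.21, adjusted p = 0.0152, 0.0622 with the replicate block and 0.05 without Col water replicate 1). Neither gene overlapped between the groups, and the other 7 measured PUB genes did not pass. Of 47 measured UDP-glycosyltransferases 3 rose (6.38%) and 5 fell (10.6%), against 5.92% and 5.01% of all genes with 1 name, with a median of -0.04. With the replicate block 3 rose and 2 fell. UGT76E11 measured 79, 41.1, 45.2 and 16.2 in Col BTH, against 169.9, 262, 179.5 and 277.5 in Col water (log2 fold change -2.03, SE 0.29, adjusted p = 5.62e-05) and UGT84A3, which glucosylates sinapate and related acids, measured 276, 175, 163 and 187 in Col BTH, against 376, 438, 460.3 and 419 in Col water (log2 fold change -1.05, SE 0.15, adjusted p = 7.21e-05). UGT73D1 was dim in Col water and rose, at 74.7, 107, 109 and 83.8 in Col BTH, against 2.9, 3.9, 3 and 31.6 in Col water (log2 fold change 2.17, SE 0.47, adjusted p = 0.00305, and 0.333 with module as a block). Of 14 measured SWEET sugar transporters SWEET11, a sucrose exporter of phloem loading, rose, at 2896.5, 2781, 3313 and 3374 in Col BTH, against 1881, 1393, 1596 and 2164 in Col water (log2 fold change 0.82, SE 0.14, adjusted p = 0.000374), and 3 others fell, 1 of them also with the replicate block. GTR1, a glucosinolate transporter, fell, at 864, 924, 848 and 811 in Col BTH, against 1258, 1424, 1689.6 and 1435 in Col water (log2 fold change -0.73, SE 0.16, adjusted p = 0.00324, and 0.102 with module as a block).

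Some of the measured genes for chloroplast proteins passed the test as falls. TAPX, the ascorbate peroxidase of thylakoids, measured 1329, 1339, 1162 and 1094 in Col BTH, against 2334, 2510.5, 2793 and 2271 in Col water, lower on all 4 pairs (log2 fold change -1.0, SE 0.10, adjusted p = 1.45e-06). SBPASE, an enzyme of the Calvin cycle, measured 7118, 6561, 6635 and 7011 in Col BTH, against 10309, 10677, 10798.5 and 13649.7 in Col water (log2 fold change -0.72, SE 0.11, adjusted p = 0.000144). The other 2 measured carbon fixation genes, PRK and RCA, had log2 fold changes of -0.30 and -0.11 and did not pass (adjusted p = 0.109 and 0.705). Nor did any of 3 light-harvesting and 4 photosystem genes, whose medians were -0.29 and -0.32. The photosystem genes PSBY (adjusted p = 0.052) and PSAN (0.0576) passed with run as a block (0.0259 and 0.0287). Both also passed with a pseudocount of 64 (0.0379 and 0.0407), among brighter probe sets (0.0195 and 0.0215) and without Col BTH replicate 4 (0.0226 and 0.041). PSAN passed under quantile normalization too (0.017), and PSBY without Col water replicate 1 (0.042) or 2 (0.0491). LHCB4.3 passed without Col water replicate 1 (0.0436), and PRK among brighter probe sets (0.048). PSBW and PSAE-1 passed under no alternative. In mil4, 3 of the 4 photosystem genes fell. GSTU16, a glutathione transferase, fell as well, at 336, 238.5, 299 and 289 in Col BTH, against 587, 462, 499 and 481 in Col water (log2 fold change -0.77, SE 0.14, adjusted p = 0.000868, and 0.114 with module as a block). AFR, an F-box protein of phytochrome A signalling, measured 204, 150.4, 159.9 and 137 in Col BTH, against 318, 338.5, 357 and 472 in Col water (log2 fold change -1.11, SE 0.19, adjusted p = 0.000432). Further falls were those of ZW9 (-1.42) and AR781 (-1.32), and AT3G28220 (-2.07), AT1G69523 (-1.91), AT1G78070 (-1.89), AT1G30250 (-1.83), AT2G40435 (-1.82), AT4G26790 (-1.71), AT1G12010 (-1.69), AT1G57590 (-1.67) and AT5G59130 (-1.67) led those known by locus tag. Each of these 11 genes had no overlap between the groups, as the rule for naming them required.

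The 4 water groups show where Col water itself stood. The mil4 sid2 and sid2 arrays were all hybridized on day 4, in runs 7 and 8. All Col and mil4 arrays were hybridized on days 1 to 3. Between Col water and these sid2-carrying groups, genotype and hybridization day therefore cannot be told apart. On sid2 replicate 1, 9.61% of values lay under 16, against 15.57% to 16.86% on the other sid2 arrays. Among the 1528 rises, Col BTH and mil4 BTH both averaged above all 4 water groups in 73.3%, against 14.8% of all probe sets, a share to which the choice of the rises contributes. Among the 1358 falls both lay below all 4 in 68.1%, against 15.2% of all, a share to which the choice of the falls likewise contributes. AMY1 is a gene of this kind, with levels on the log2 scale (mean ± SD, n = 4) of 10.36 ± 0.14 in Col BTH, 10.72 ± 0.17 in mil4 BTH, 7.23 ± 0.30 in Col water, 7.27 ± 0.43 in mil4 water, 7.25 ± 0.10 in mil4 sid2 and 6.81 ± 0.13 in sid2. The mutants without BTH lay nearer to Col water than to either BTH group. COR15B had a like order downward, with 9.58 ± 0.28 in Col BTH, 9.95 ± 0.50 in mil4 BTH, 11.54 ± 0.49 in Col water, 11.27 ± 0.18 in mil4 water, 11.22 ± 0.17 in mil4 sid2 and 11.06 ± 0.18 in sid2. ORA47 did not, with 7.73 ± 0.85 in Col BTH, 6.64 ± 0.38 in mil4 BTH, 11.25 ± 0.36 in Col water, 6.78 ± 0.32 in mil4 water, 7.08 ± 0.21 in mil4 sid2 and 7.68 ± 0.36 in sid2. Its level in Col BTH was near that of the mutants with water, and Col water was the group that stood apart. AR781 (9.99 ± 0.44 in Col BTH, 9.92 ± 0.25 in mil4 BTH, 11.32 ± 0.36 in Col water, 9.45 ± 0.12 in mil4 water, 9.84 ± 0.33 in mil4 sid2 and 9.50 ± 0.12 in sid2) and GH9C2 (9.47 ± 0.43 in Col BTH, 8.73 ± 0.26 in mil4 BTH, 10.80 ± 0.33 in Col water, 8.66 ± 0.28 in mil4 water, 8.96 ± 0.08 in mil4 sid2 and 8.74 ± 0.23 in sid2) also had Col water highest of the 6 groups. EXO had its lowest mean in Col water, with 12.69 ± 0.65 in Col BTH, 12.43 ± 0.32 in mil4 BTH, 10.25 ± 1.35 in Col water, 12.60 ± 0.18 in mil4 water, 10.58 ± 0.06 in mil4 sid2 and 11.11 ± 0.25 in sid2. Col water was the lowest of the 6 group means in 53.3% of the rises, against 22.4% of all probe sets. It was the highest in 55% of the falls, against 15.4% of all. EXPB1, PUB25 and AFR were such falls, and their Col BTH means also lay above those of every mutant group with water. EXPA16 was not such a fall, with means of 8.38 in Col water and 8.94 in mil4 sid2. Rises were chosen for a low Col water and falls for a high one, so the choice itself contributes to both shares.

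**Figure D4:**
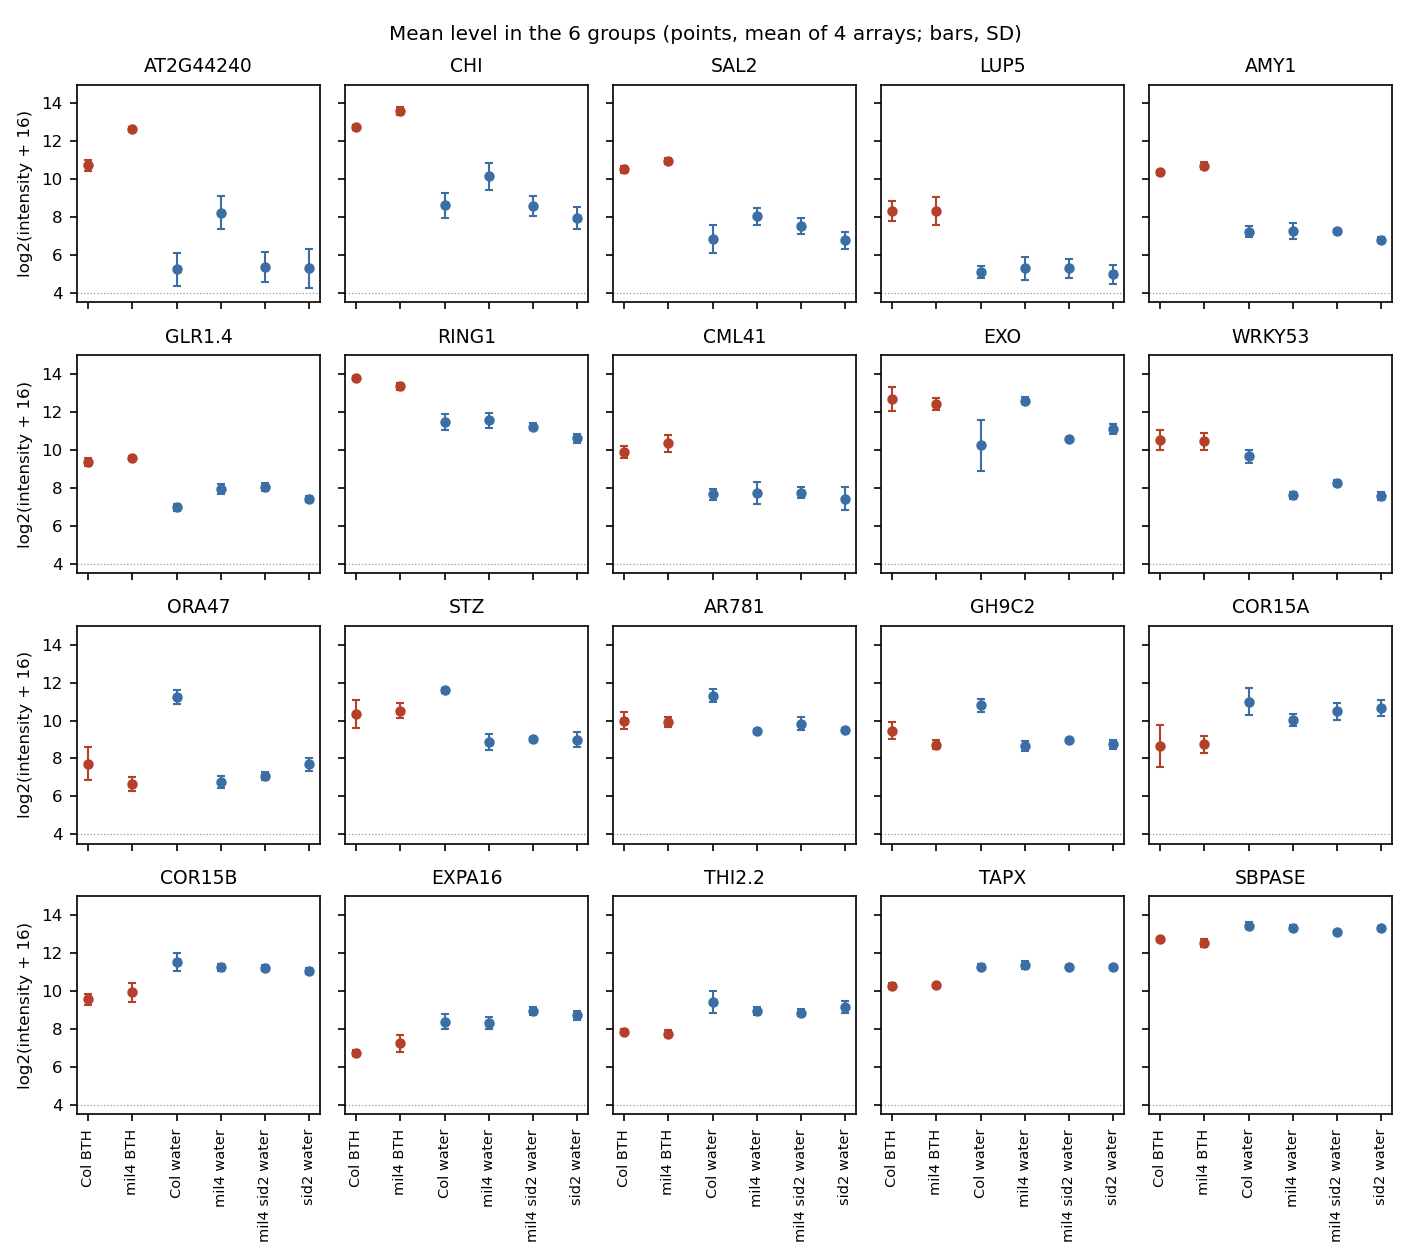
Mean level, log2(intensity + 16), of 20 genes in the 6 groups (points, mean of 4 arrays; bars, SD; red, BTH; blue, water; the dotted line at 4 is an intensity of 0). AMY1, LUP5 and CML41 are high in both BTH groups and low in all water groups, while ORA47, STZ, AR781 and GH9C2 are highest in Col water.

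The mil4 arrays give a reading of the same treatment in another genotype. They set neither mean of the Col comparison and share its estimate of the spread. In mil4, 9.67% of probe sets rose with BTH and 7.77% fell. Of the 1528 rises in Col 957 also rose in mil4, which is 62.6% of the Col rises and 43.5% of the mil4 rises. Of the 1358 falls 837 also fell, 61.6% of the Col falls and 47.3% of the mil4 falls. Opposite calls were made for 26 and 23. CHI changed by 4.12 in Col and 3.44 in mil4, AMY1 by 3.13 and 3.45, GLR2.7 by 1.42 and 1.43, CYP71B23 by 1.63 and 1.41, ATERDJ3B by 1.13 and 1.24, and TAPX by -1.0 and -1.05. The lowest adjusted p among these 6 differences was 0.74, which does not show that the responses are equal.

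The difference of the 2 responses itself, Col minus mil4, passed the test for 229 probe sets (1.01%), 79 of them among the Col rises (5.17%) and 51 among the Col falls (3.76%). With the replicate block, 10 passed. ORA47 differed by -3.38 (SE 0.44, adjusted p = 0.000323, and 0.0611 with the replicate block), and in mil4 it was low with and without BTH. AR781 differed by -1.80 (SE 0.29, adjusted p = 0.0019) and AT3G06070 by 2.24 (SE 0.35, adjusted p = 0.0015), and both kept their calls with the block (0.037 each). AT3G06070 measured 1515, 1436, 2052 and 1496 in Col BTH, against 606, 643, 1069 and 409.6 in Col water, a rise with no overlap (log2 fold change 1.3, SE 0.25, adjusted p = 0.00102, and 0.0599 with module as a block), and fell in mil4 (-0.94, adjusted p = 0.0105). STZ moved in opposite directions, with a rise of 1.67 in mil4 against its fall in Col, and its responses differed by -2.90 (SE 0.40, adjusted p = 0.000667, and 0.0729 with the block). The difference of WRKY53, -1.98 (SE 0.33), had an adjusted p of 0.00275 and 0.12 with the block, and that of EXO, 2.61 (SE 0.60), had 0.0381 and 0.117. For EXO the adjusted p missed the threshold on leaving out any 1 of 12 of the 16 Col and mil4 arrays, reaching 0.0978 without Col BTH replicate 2. AT1G78070 differed by -1.18 (adjusted p = 0.0466), a call lost on leaving out any 1 of 13 of the 16 arrays. AT5G46440 fell in Col (-1.16, adjusted p = 0.0406) and rose in mil4 (1.15, adjusted p = 0.0329), a difference with an adjusted p of 0.03, and 0.139 with the block. That difference was lost on leaving out any 1 of 10 of the 16 arrays (up to 0.0838). Its fall in Col was lost with the replicate block (0.0743) and on leaving out any Col array other than BTH replicate 1 and water replicate 2 (up to 0.14).

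**Figure D5:**
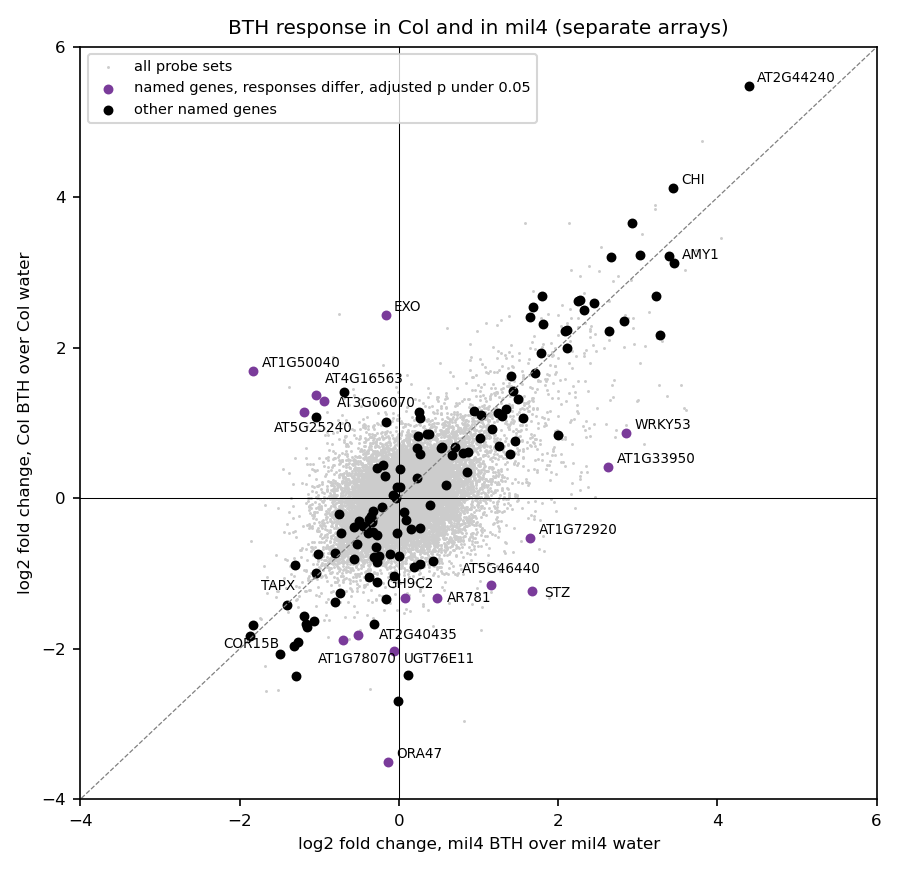
Log2 fold change of Col BTH over Col water (y axis) against that of mil4 BTH over mil4 water (x axis) for all probe sets (grey) and the named genes, with those whose responses differed in purple; the dashed line marks equal responses. CHI (4.12 and 3.44) and AMY1 (3.13 and 3.45) lie near the line, and ORA47 (-3.51 and -0.14) and STZ (-1.23 and 1.67) far from it.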

How the data were processed

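Total RNA of rosettes was the starting material for the Affymetrix ATH1 arrays. The deposited values are linear probe-set intensities. Each array's 2% trimmed mean of intensity is near 500 in the deposited table, and the sources used here do not name the summarisation software. Hybridization day, run and fluidics module come from the instrument records, per the file headers. AFFX controls (64 of 22810 probe sets) were left out, 16 was added and log2 taken. limma 3.58.1 in R 4.3.3 fitted 1 mean per group to all 24 arrays (lmFit, eBayes), with Benjamini-Hochberg adjustment over 22746 probe sets and a threshold of 0.05, after a test on simulated data. All adjusted p-values come from these limma fits. Alternatives were the Col arrays alone, the replicate block, pseudocounts of 1 and 64, quantile normalization, brighter probe sets, blocks for day, run and module, and leaving out each array.

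Gene names come from GEO's platform annotation with symbols from RefSeq. Of the probe sets tested 13513 had 1 gene, 503 several and 8730 none, and the last 2 kinds were not named. Named genes were the 14 largest rises and falls past the test with and without the replicate block, with no overlap, up to 4 members per list, and the 5 largest response differences each way; the largest changes of genes with a symbol were added after values were seen. The comparison, genes and lists were chosen with earlier results of these data known.

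Same-numbered Col BTH and Col water arrays shared a run, and their deviations from the group means correlated at 0.202, 0.288, 0.189 and 0.156 for replicates 1 to 4 over 2793 probe sets. Of the 8 Col arrays 7 correlated best with the array of their own number. The numbers were therefore taken to pair the arrays in the replicate block, while the main fit left the pairing out. The number of arrays limits the precision of each value.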

Additional observations from a re-analysis of the deposited data

Results flagged for a closer look

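In 20 of 320 groups of 4 arrays checked for the named genes, 1 array stood apart from the other 3 by Dixon's test, which flags about 1 group in 20 by chance. In Col BTH, replicate 1 was low for cwINV6 (418.3, next 470.1), AT1G33950 (17.6, next 29.5), GH3.3 (152, next 261.6) and scpl25 (429.4, next 479.5). Col BTH replicate 2 was low for WRKY53 (844.1, next 1730.5), PUB25 (155.6, next 233.5), EXPA4 (472.4, next 651) and UGT88A1 (2619.6, next 3672.1). Col BTH replicate 3 was high for AT3G06070 (2052.3, next 1515.2), GSTU15 (17.5, next 2.9) and YUC6 (76.4, next 4.4). In Col water, replicate 1 was high for PDF1.2 (2535.4, next 464.5) and MUTE (35.4, next 5.1) and low for PUB19 (53.9, next 100.7), and replicate 2 was high for UGT74F1 (16.6, next 7). Col water replicate 3 was low for AT5G59130 (493.1, next 562.3) and scpl31 (79.5, next 111). Col water replicate 4 was low for CHI (182.1, next 470.4) and high for UGT73D1 (31.6, next 3.9) and SBPASE (13649.7, next 10798.5).

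The responses of Col and mil4 differed by the limma test of the difference for 16 of the named genes, here given as Col minus mil4. Positive differences were those of AT1G50040 (3.52), EXO (2.61), AT4G16563 (2.41), AT5G25240 (2.35) and AT3G06070 (2.24). Negative ones were those of ORA47 (-3.38), STZ (-2.90), AT5G46440 (-2.31), AT1G33950 (-2.22), AT1G72920 (-2.18), WRKY53 (-1.98), UGT76E11 (-1.96), AR781 (-1.80), GH9C2 (-1.41), AT2G40435 (-1.30) and AT1G78070 (-1.18). With the replicate block AR781 and AT3G06070 kept their calls and the other 14 did not. The difference of AT1G33950 (adjusted p = 0.0481) was also lost on leaving out any 1 of 15 of the 16 arrays, with adjusted p up to 0.121.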

How the results depend on the processing

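Of 105 named or listed genes that passed in Col, 54 kept their call under every alternative run and 76 did on leaving out each array in turn. Calls lost numbered 24 with the 8 Col arrays alone, 36 with the replicate block, 49 with module as a block and between 6 and 22 on leaving out 1 array. The count of 2886 probe sets called in Col was 1057 with the replicate block and 893 with module as a block, and lay between 2172 and 2689 on leaving out 1 array. The count of 229 response differences was 115 with the 16 Col and mil4 arrays alone, 10 with the replicate block, 362 with a pseudocount of 64, 389 when dimmer probe sets were left out, and between 149 (without mil4 BTH replicate 3) and 292 on leaving out 1 array. The fits of 8 or 16 arrays hold fewer samples; otherwise the cause of these shifts was not tested. No gene that passed changed direction. The sign turned for genes that did not pass: with module as a block ATG8G (-0.10), ATHSP22.0 (-0.77), CYP71B30P (-0.27), EFR (-0.22), IAA30 (-0.24), MUTE (-0.19) and YUC6 (0.17), and with a pseudocount of 1 ATHSP22.0 (-0.019). On leaving out 1 array in turn, values on both sides of 0 were given by ATHSP22.0 (-0.14 to 0.21), BZIP60 (-0.012 to 0.21), COR47 (-0.039 to 0.25), EFR (-0.016 to 0.26), EXPA7 (-0.42 to 0.077), GI (-5e-04 to 0.094) and IAA31 (-0.57 to 0.048). Dim probe sets limit what can be read: between 16.46% and 17.48% of values in Col BTH and between 16.68% and 17.93% in Col water lay under 16.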

Other observations

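EXO, AT1G50040, AT4G16563 and AT5G25240, all among the genes whose response differed most between Col and mil4, had the same order of the Col BTH arrays. From high to low it was replicates 2, 3, 4 and 1. AT1G50040 measured 247, 849, 531 and 308 in Col BTH, against 43.3, 90.7, 308.5 and 163.5 in Col water (log2 fold change 1.69, SE 0.41, adjusted p = 0.00666, and 0.0904 with the replicate block). AT4G16563 measured 75.3, 566, 229.5 and 112.5 in Col BTH, against 55.1, 62.5, 62.6 and 69.1 in Col water (log2 fold change 1.37, SE 0.35, adjusted p = 0.00971, and 0.149 with the block), and AT5G25240 measured 231, 673.5, 421 and 338 in Col BTH, against 113, 175, 394 and 91 in Col water (log2 fold change 1.15, SE 0.32, adjusted p = 0.0201, and 0.114 with the block). The Col BTH arrays of EXLA1 and XTH33 had that order too. The call of AT5G25240 was lost without Col BTH replicate 2 (0.0947) or 3 (0.0532) or Col water replicate 1 (0.0712) or 4 (0.094). In mil4 AT1G50040, AT4G16563 and AT5G25240 fell, with log2 fold changes of -1.83, -1.04 and -1.20 (adjusted p = 0.00299, 0.0417 and 0.0124).

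Of 29 measured serine carboxypeptidase-like genes, a family of acyltransferases and peptidases, 2 were higher and 5 lower in Col BTH, against 5.92% higher and 5.01% lower over all genes with 1 name, with a median of -0.07. With the replicate block 2 were higher and 3 lower. The changes of scpl46 (0.71), scpl25 (-0.64) and scpl20 (-0.81) kept their calls under the alternatives run. Among genome neighbours both measured by probe sets of 1 gene, 33 of 5813 adjacent pairs were both higher in Col BTH and 26 both lower. A gene beside a higher one was itself higher in 8.98% of cases, against 6.32% of all members of such pairs, and the shares for lower genes were 7.69% and 5.81%.

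The other lists gave few calls, to be read against the same 5.92% and 5.01%. Of 4 measured genes for aliphatic glucosinolates 2 fell in Col BTH, 1 of them with the replicate block. Of 3 clock genes 1 rose, and none with the block. Of 14 glutathione transferases 1 rose and 2 fell, and with the block none rose and 1 fell. Of 9 xyloglucan hydrolases 1 rose and 1 fell, and of 3 markers of guard cell development 1 fell, none of these with the block. None passed among 7 Aux/IAA repressors, 3 auxin genes, 2 senescence genes and the 1 measured gene each for tryptophan, NAC factors, protein disulfide isomerases and heat shock proteins. For 10 of the 42 lists no member was measured under the naming used here.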
